A study of Mus musculus with 7 samples.

Results

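Integrins are the adhesion receptors of dendritic cells, and 10 integrin genes, chosen by name, were followed on 7 microarrays of sorted mouse splenic dendritic cells. They are 6 alpha subunit genes (Itgax, Itgae, Itgam, Itgal, Itga4 and Itgav) and 4 beta subunit genes (Itgb1, Itgb2, Itgb7 and Itgb8). All 10 were measured by 1 probe set each, out of 19505 named genes on the array. The KO arrays, numbered 1 to 4, hold type 1 conventional dendritic cells (cDC1, the subset that cross-presents antigen to CD8 T cells) from CD11c-Cre; OPA1 flox mice, in which Cre acts on a floxed Opa1 gene in CD11c-expressing cells. The WT arrays, numbered 1 to 3, hold cDC1 from WT mice. Both groups are of strain C57BL/6 and bore B16-OVA tumors, a mouse melanoma line that expresses ovalbumin. Opa1 encodes a GTPase needed for fusion of inner mitochondrial membranes. The labels give no age, no sorting gate and no count of mice per array, and do not say whether WT mice carried Cre or the floxed allele, so p-values measure only how these 7 arrays vary, and some of that variation may be technical. Cre driven by CD11c is active in every CD11c-expressing cell and not in cDC1 alone.

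An integrin is a pair of 1 alpha and 1 beta subunit that spans the membrane, binds a ligand outside and connects to the actin cytoskeleton inside. The beta 2 subunit pairs with the alpha subunits of the CD11 group to form receptors found on leukocytes, while beta 1, beta 7 and beta 8 pair with other alpha subunits. Dendritic cell subsets are told apart in part by integrins. Itgax (CD11c) marks conventional dendritic cells as a class, Itgae (CD103) marks many cDC1, and Itgam (CD11b) marks type 2 conventional dendritic cells (cDC2), monocytes, macrophages and neutrophils. The CD11c of the Cre driver is itself the product of Itgax.

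Itgam and Itgax are neighbours on chromosome 7, with 0 protein-coding genes between them in the reference annotation, and Itgad, another beta 2 partner, follows Itgax directly. The promoters of Itgam and Itgax are shown as background, and no link between their letters and the array values was tested. The sequences are from RefSeq (build GRCm38.p6, plus strand) and run from 250 bases before to 50 bases after the gene start. Capitals mark GAGGAA or its reverse complement, 1 form of the site recognised by the myeloid factor PU.1. Other forms of the site were not searched, so a window without capitals may still hold one.
Itgam, chr7:128062390-128062689: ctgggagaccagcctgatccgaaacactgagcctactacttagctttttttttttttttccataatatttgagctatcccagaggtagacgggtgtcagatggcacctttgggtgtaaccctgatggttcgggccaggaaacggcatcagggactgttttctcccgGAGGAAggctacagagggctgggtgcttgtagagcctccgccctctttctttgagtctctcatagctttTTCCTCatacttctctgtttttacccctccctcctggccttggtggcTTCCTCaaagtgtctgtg
Itgax, chr7:128129300-128129599: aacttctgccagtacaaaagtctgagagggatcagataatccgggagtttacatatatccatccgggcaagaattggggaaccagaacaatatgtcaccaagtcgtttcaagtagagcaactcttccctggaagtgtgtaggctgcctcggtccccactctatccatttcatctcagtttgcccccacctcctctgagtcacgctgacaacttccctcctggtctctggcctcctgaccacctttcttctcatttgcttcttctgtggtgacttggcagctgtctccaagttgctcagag
The Itgam window held 3 matches and the Itgax window 0, where 28.3% of 32851 mouse promoters of the same length held at least 1. The core letters of RUNX sites, TGTGGT on either strand, matched 0 times in the Itgam window and 1 time in the Itgax window, and 16.8% of all promoters held a match. Promoter entries were found for 7 of the 10 genes. GAGGAA also matched 2 times for Itgav and 1 time each for Itgb1 and Itgb7, and 0 times for Itga4 and Itgb8. TGTGGT also matched 1 time for Itga4, and 0 times for Itgav, Itgb1, Itgb7 and Itgb8. The matches are thus not particular to Itgam and Itgax. A match is a run of letters and does not show that a factor binds there.

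The targeted gene and the cell type markers were read before the integrins. Values are log2 signals made by the authors with RMA, so a difference of 1 is a 2-fold change. Opa1 read 7.70, 7.10, 6.85 and 8.24 on KO 1 to 4, against 8.14, 8.80 and 9.15 on WT 1 to 3, and KO 4 lay above WT 1 (KO minus WT -1.22, limma adjusted p = 0.223). Opa1 exceeded the 95th percentile of the negative control probe sets, which was 9.37 to 10.19, on 0 arrays, so its signal was not clearly above background. Where its probes lie relative to the deleted part was not analysed here, so these values are a weak check of the labels. The arrays labelled WT 1 and WT 2 stood apart from the other 5 in markers of cell types. The mean of 15 cDC1 markers was 12.04 to 12.09 on the KO arrays, against 11.21, 9.50 and 12.10 on WT 1 to 3. Xcr1, the chemokine receptor that defines cDC1, read 7.97 on WT 2 and at least 12.12 on every other array, and Clec9a and Cd8a were also low on WT 2, at 7.29 and 6.96. These markers thus go against the cDC1 label of WT 2, and Cd8a, at 7.89, was also low on WT 1. The mean of 11 cDC2 markers was 8.49 to 8.93 on the KO arrays, against 8.52, 10.13 and 9.16 on WT 1 to 3. Single cDC2 markers were mixed on WT 2, with 6 above the KO range and 2 below it, against 28.1% and 42.1% of all genes. The mean of 16 monocyte and macrophage markers was 7.98 to 8.44 on the KO arrays, against 8.44, 9.67 and 8.67 on WT 1 to 3. The mean of 17 melanocyte markers was 7.23 to 7.83 on the KO arrays, against 11.30, 11.60 and 8.81 on WT 1 to 3. The mean of 7 pan-cDC markers was 11.25 to 11.39 on the KO arrays, against 10.78, 10.44 and 11.26 on WT 1 to 3. All 7 were below the KO range on WT 1 and on WT 2, against 33.6% and 42.1% of all genes. The remaining marker lists were plasmacytoid dendritic, B, T and NK, neutrophil, endothelial, fibroblast, platelet and red cell. For these, WT 1 and WT 2 lay between -0.94 and 0.30 of the KO mean and WT 3 between -0.14 and 0.47. In RNA from a bulk sort, fewer cells of a type and less RNA per cell cannot be told apart, and the part that these markers have in the integrin values was not tested.

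**Figure D1:**
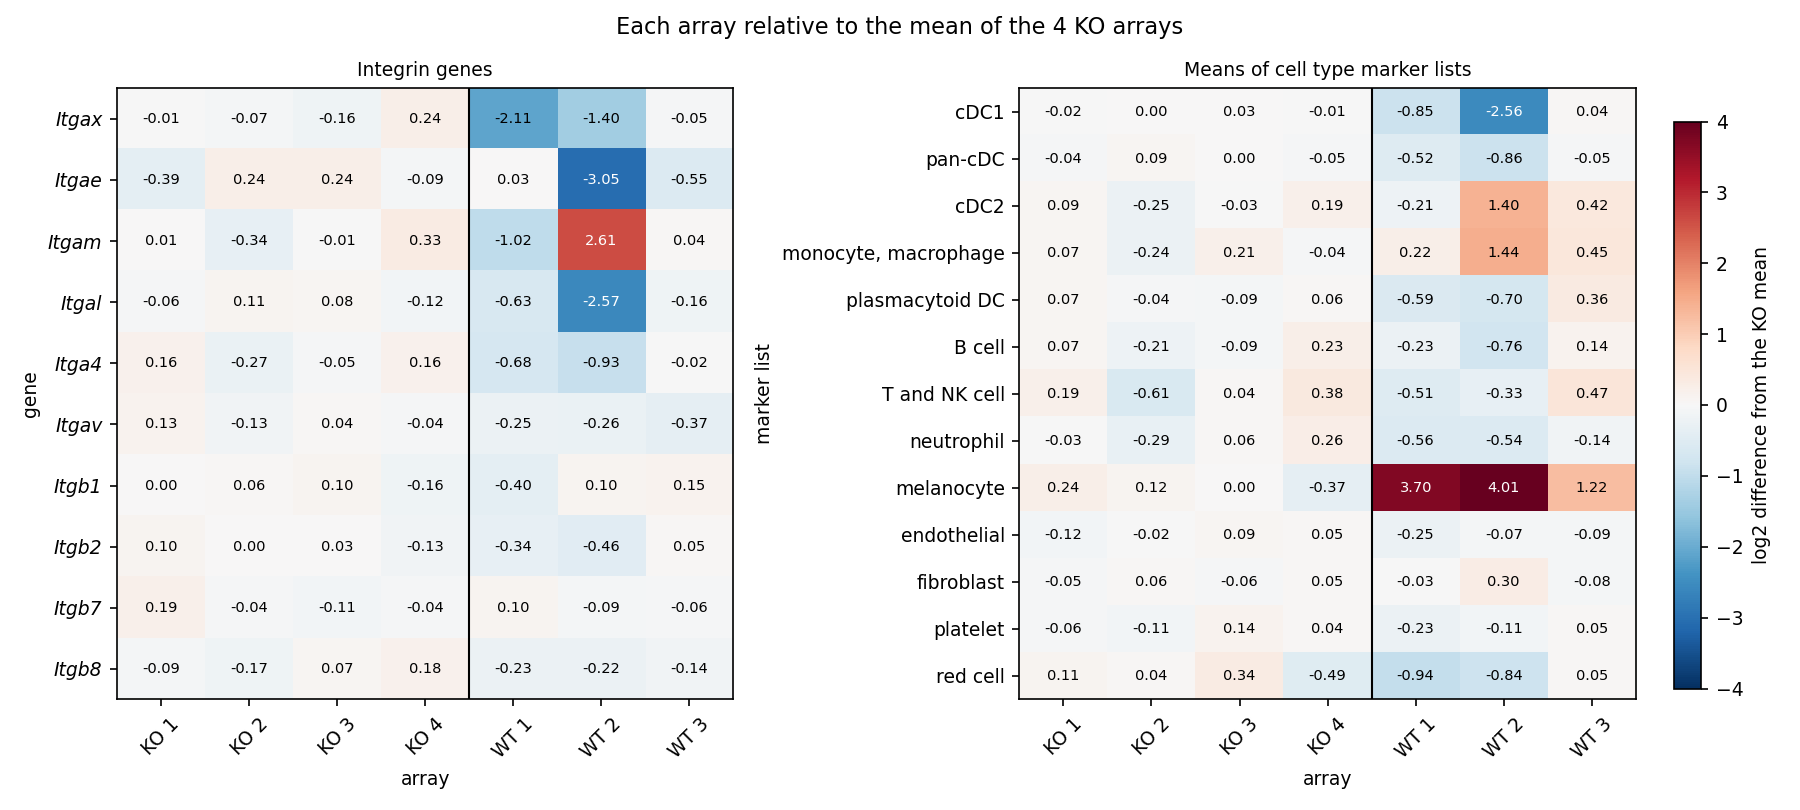
Log2 difference of each array from the mean of the 4 KO arrays, for the 10 integrin genes (left) and for the means of 13 cell type marker lists (right), with KO arrays left of the line and WT arrays right of it. WT 2 is low for Itgae (-3.05) and Itgal (-2.57) and high for Itgam (2.61), and its cDC1 marker mean is at -2.56 and its cDC2 marker mean at 1.40.

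Across the groups as labelled, 9 of the 10 integrin genes had a higher mean in KO and 1, Itgam, a lower mean, where 59.9% of all genes were higher in KO. None of the 10 passed the threshold of 0.05 in limma after Benjamini-Hochberg adjustment over all 19505 genes, where 0% were called and no adjusted p was below 0.223. Before adjustment 3 integrin genes, Itgax, Itga4 and Itgav, had p under 0.05, all higher in KO, against a background of 19.6% of genes (8.98% higher and 10.6% lower). The median difference of the 10 genes, KO minus WT, was 0.27, against 0.06 over all genes. In 2 genes, Itgal and Itgav, every KO value lay above every WT value (7.85% of all genes), and in 0 genes every KO value lay below (5.92%). The 4 KO arrays lay close together, with ranges of 0.22 (Itgal) to 0.67 (Itgam), while over all 7 arrays Itgax, Itgae, Itgam and Itgal spanned more than 2 log2 units. The lowest value was on WT 1 for Itgax and on WT 2 for Itgae and Itgal, and Itgam was lowest on WT 1 and highest on WT 2.

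**Figure D2:**
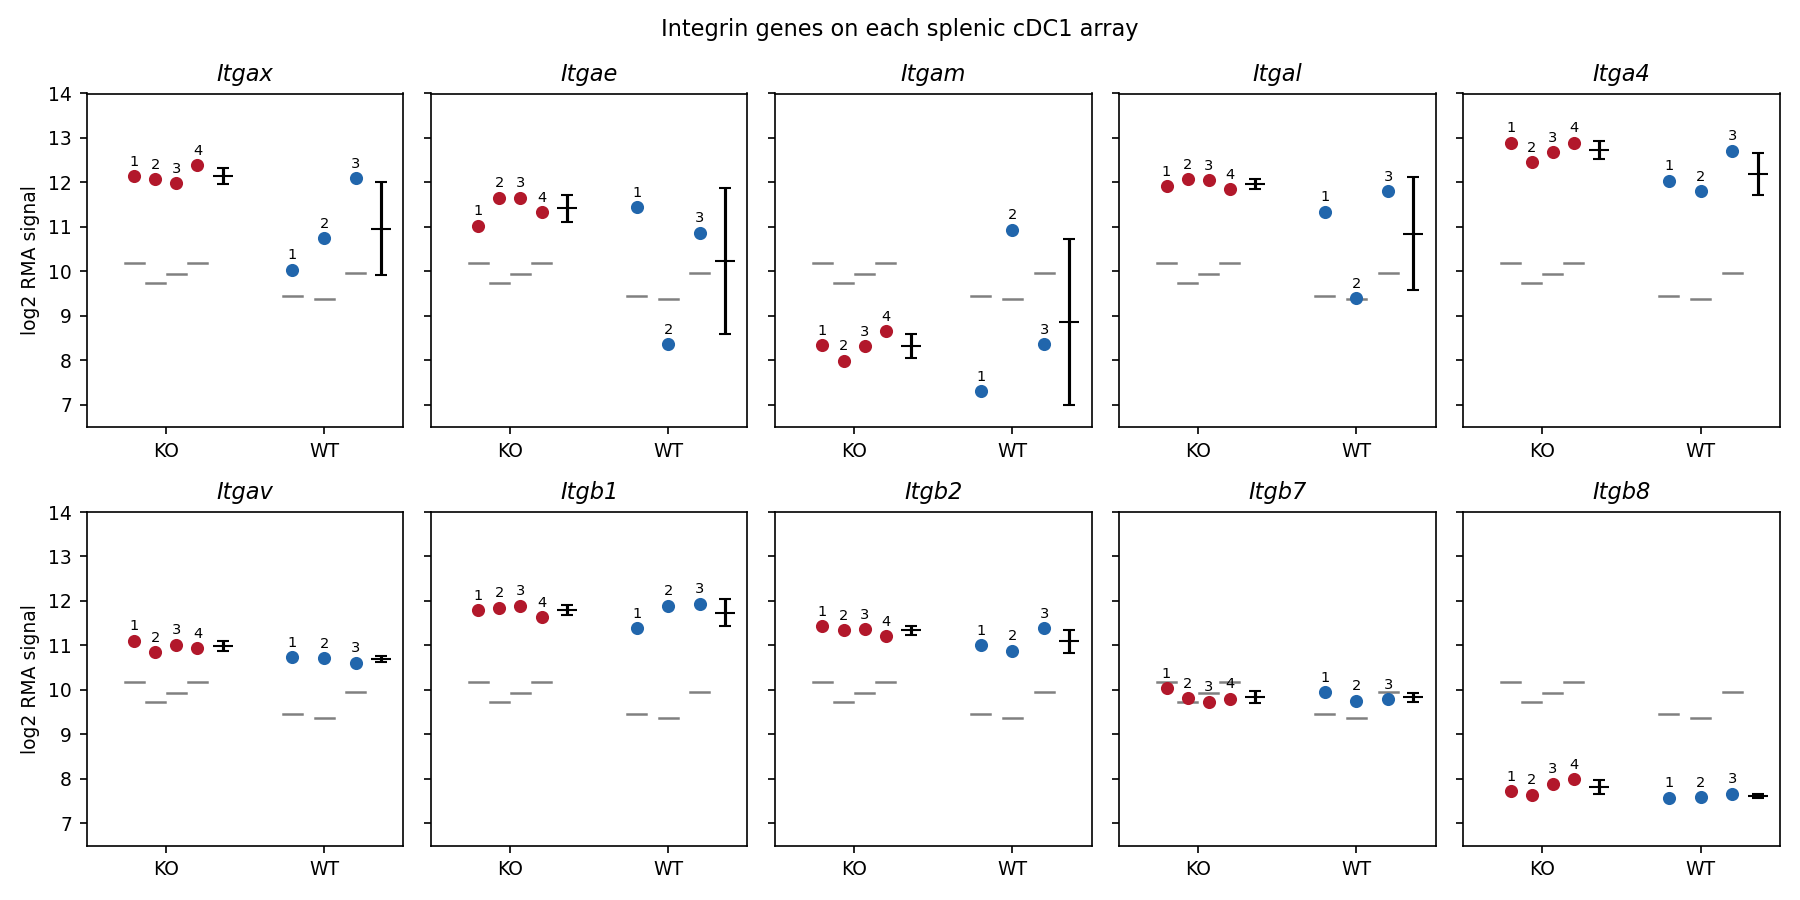
Log2 signal of each integrin gene on each KO array (red) and WT array (blue), numbered by replicate, with the group mean ± SD in black and, in grey, the 95th percentile of the negative control probe sets on that array. KO arrays cluster for each gene, whereas WT 1 and WT 2 are far from WT 3 for Itgax, and WT 2 is far from WT 1 and WT 3 for Itgae, Itgam and Itgal.

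The CD11 genes, whose products pair with beta 2, were led by Itgax. Itgax read 12.14, 12.07, 11.99 and 12.39 on KO 1 to 4, against 10.04, 10.75 and 12.10 on WT 1 to 3. WT 3 lay inside the KO range, and WT 1 and WT 2 lay below it by more than the whole spread of the KO arrays. The mean was 12.15 ± 0.17 (SD, n = 4) in KO and 10.96 ± 1.04 (SD, n = 3) in WT, a difference of 1.19 (95% interval 0.22 to 2.15, limma adjusted p = 0.224). Set against WT 3 alone, the difference was 0.05 (-0.35 to 0.46). Without WT 3 it was 1.75 and passed (limma adjusted p = 0.000327).

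Itgal (CD11a) forms the receptor LFA-1 with beta 2, which holds dendritic cells and T cells together through ICAM-1. It read 11.91, 12.08, 12.05 and 11.85 on KO 1 to 4, against 11.34, 9.40 and 11.81 on WT 1 to 3. The groups did not overlap, but the gap between KO 4 and WT 3 was small next to the gap between WT 2 and the rest. The difference was 1.12 (-0.03 to 2.28, limma adjusted p = 0.262), and 0.16 (-0.18 to 0.51) against WT 3 alone. Without WT 3 it was 1.60 and passed (limma adjusted p = 0.0225). Exact permutation of the array labels gave Itgal a two-sided p of 0.0571, the smallest that 4 arrays against 3 allow.

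Itgam (CD11b) forms the complement receptor Mac-1 with beta 2. It read 8.34, 7.99, 8.32 and 8.66 on KO 1 to 4, against 7.31, 10.94 and 8.37 on WT 1 to 3. WT 1 was the lowest of the 7 arrays and WT 2 the highest, so that WT 2 was the 1 array on which Itgam exceeded the 95th percentile of the negative control probe sets (9.37 there). The KO mean was 8.33 ± 0.27 (SD, n = 4) and the WT mean 8.87 ± 1.87 (SD, n = 3), a difference of -0.54 (-2.24 to 1.15, limma adjusted p = 0.677). The direction rested on WT 2: without that array the difference was 0.49. WT 2 was thus above the KO arrays for Itgam and below them for its neighbour Itgax. No fold is given for Itgam since its KO values were not above the 95th percentile of the negative controls.

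Itgb2 (CD18), the beta chain shared by those 3 alpha chains, varied less than any of them. It read 11.43, 11.34, 11.37 and 11.21 on KO 1 to 4, against 11, 10.88 and 11.39 on WT 1 to 3. WT 1 and WT 2 were below all KO arrays and WT 3 was among them. The difference was 0.25 (-0.07 to 0.57, limma adjusted p = 0.332), -0.05 (-0.38 to 0.29) against WT 3 alone, and 0.40 without WT 3 (limma adjusted p = 0.0344).

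Itgae encodes the alpha E chain (CD103), which pairs with beta 7 and binds E-cadherin. It read 11.03, 11.66, 11.66 and 11.33 on KO 1 to 4, against 11.45, 8.37 and 10.87 on WT 1 to 3. WT 1 lay inside the KO range, WT 3 just below it and WT 2 far below it, under the 95th percentile of negative controls on that array. The KO mean was 11.42 ± 0.30 (SD, n = 4) and the WT mean 10.23 ± 1.64 (SD, n = 3). The difference was 1.19 (-0.32 to 2.69, limma adjusted p = 0.326), and 0.55 (-0.02 to 1.12, adjusted p = 0.834) against WT 3 alone. Leaving out WT 2 brought it to 0.26, and leaving out WT 1 to 1.80. Itgax and Itgae thus had the same mean difference from different arrays, since Itgax was lowest on WT 1 and Itgae on WT 2.

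Itgb7, the beta partner of Itgae and an alternative partner of Itga4, had the narrowest span over the 7 arrays, 0.30. It read 10.04, 9.81, 9.74 and 9.80 on KO 1 to 4, against 9.95, 9.76 and 9.79 on WT 1 to 3. The values of the groups were intermixed, and the difference was 0.02 (-0.24 to 0.27, limma adjusted p = 0.942). Itgb7 exceeded the 95th percentile of negative controls on 3 arrays, so on the others its signal was not clearly above background. Relative to the KO mean, WT 2 was at -3.05 for Itgae and at -0.09 for Itgb7.

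Itga4 (CD49d) pairs with beta 1 to bind VCAM-1 and with beta 7 to bind MAdCAM-1. It read 12.89, 12.46, 12.68 and 12.89 on KO 1 to 4, against 12.04, 11.80 and 12.71 on WT 1 to 3. As for Itgax, WT 3 was among the KO arrays and the other WT arrays were below them. The difference was 0.55 (0.03 to 1.06, limma adjusted p = 0.244), 0.02 (-0.42 to 0.47) against WT 3 alone and 0.81 without WT 3 (limma adjusted p = 0.00537).

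Itgb1 (CD29), the most widely used beta chain, read 11.79, 11.85, 11.89 and 11.63 on KO 1 to 4, against 11.39, 11.89 and 11.94 on WT 1 to 3. Only WT 1 was below the KO arrays, and WT 3 was slightly above them. The difference was 0.05 (-0.30 to 0.41, limma adjusted p = 0.854).

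Itgav (CD51) and Itgb8 encode the integrin by which dendritic cells release active TGF-beta from its latent complex. Itgav read 11.11, 10.85, 11.02 and 10.94 on KO 1 to 4, against 10.73, 10.72 and 10.61 on WT 1 to 3. Every KO array lay above every WT array, and unlike the other 9 genes it had its lowest WT value on WT 3 while all 3 WT arrays were below the KO range. The mean was 10.98 ± 0.11 (SD, n = 4) in KO and 10.69 ± 0.07 (SD, n = 3) in WT, a difference of 0.29 or 1.22-fold (95% interval 0.06 to 0.52, limma adjusted p = 0.223). Against WT 3 alone it was 0.37 (0.02 to 0.72, limma adjusted p = 0.834), and neither difference passed adjustment over all genes. WT 3 itself was 1.22 above the KO mean for melanocyte markers, 0.42 for cDC2 markers and 0.45 for monocyte and macrophage markers. It was also 0.47 above for T and NK cell markers and 0.36 for plasmacytoid dendritic cell markers. The part of these markers in the Itgav values was not tested. Exact permutation of the array labels again gave the smallest possible two-sided p, 0.0571.

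Itgb8 read 7.72, 7.65, 7.89 and 8.0 on KO 1 to 4, against 7.58, 7.59 and 7.67 on WT 1 to 3. Only KO 2 overlapped the WT arrays, being just under WT 3. The difference was 0.20 (-0.06 to 0.46, limma adjusted p = 0.337), and Itgb8 exceeded the 95th percentile of negative controls on 0 arrays, so its level is not well separated from background. The medians of the negative controls were 6.88, 6.49, 6.67 and 6.88 on KO 1 to 4, against 6.19, 6.26 and 6.71 on WT 1 to 3, so that WT 1 and WT 2 were below all KO arrays and WT 3 was among them.

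**Figure D3:**
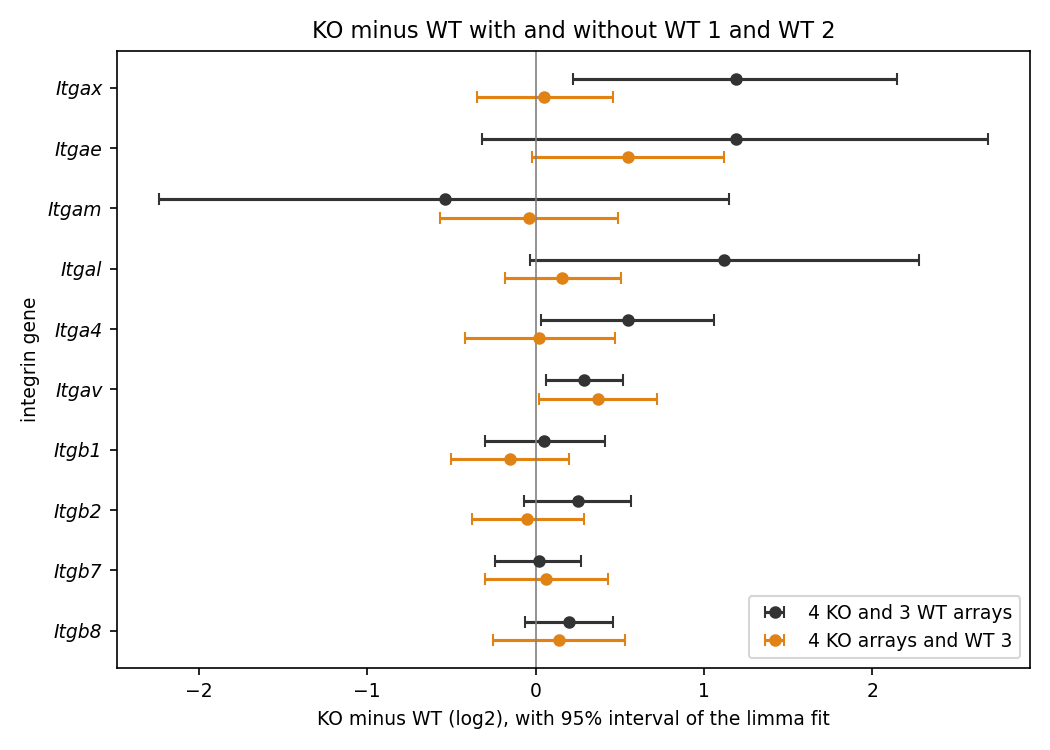
KO minus WT in log2 units for each integrin gene with the 95% interval of the limma fit, from all 7 arrays (dark) and from the 4 KO arrays and WT 3 (orange), where the spread of the single WT array is taken to equal that of the KO arrays. The differences of Itgax, Itgal and Itga4 are 1.19, 1.12 and 0.55 with all arrays and 0.05, 0.16 and 0.02 without WT 1 and WT 2, while that of Itgav is 0.29 with all arrays and 0.37 without them.

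Set against the range of the 4 KO arrays, WT 1 was below it in 8 of the 10 integrin genes and above it in 0, where 33.6% of all genes were below and 28.3% above. WT 2 was below in 7 and above in 1, Itgam, against 42.1% and 28.1% of all genes. WT 3 was below in 3 (Itgae, Itgal and Itgav) and above in 1 (Itgb1), against 24.2% and 18.1% of all genes, which is close to the background. Without WT 3, limma called 4 of the 10 (Itgax, Itgal, Itga4 and Itgb2), all higher in KO, where 25.3% of all genes were called, 11.4% higher and 13.8% lower, and 36.9% had an unadjusted p under 0.05. In the same 6 arrays 6 of the 10 did not overlap between groups, against 46% of all genes. Without WT 1 and WT 2, 4 of the 10 did not overlap, against 42.3% of all genes. There limma called 0 of the 10 and 0 of all genes, with 5.92% of genes at an unadjusted p under 0.05, among them 1 of the 10, Itgav.

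Alpha and beta chains that form a receptor were compared by the distance between their profiles. For 8 known pairs the root mean square difference between mean-centred profiles over the 7 arrays was smallest for Itgav with Itgb8, at 0.14, and for Itgav with Itgb1, at 0.24. It was 0.39 for Itga4 with Itgb7 and 0.40 for Itga4 with Itgb1. The CD11 chains were farther from Itgb2, at 0.66 for Itgax, 0.72 for Itgal and 1.16 for Itgam, and Itgae was 1.05 from Itgb7. The pairs at the small end are those in which neither gene varied much, and Itgb8 did not exceed the 95th percentile of negative controls on any array. Profiles were not scaled, so a pair in which 1 gene varied more widely lies far apart even where both move alike. Relative to the KO mean, Itgax was at -2.11 and -1.40 on WT 1 and WT 2, and Itgb2 at -0.34 and -0.46. The distances thus do not show whether paired chains change together.

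For the 4 genes that spanned more than 2 log2 units, the genes of nearest profile were looked up by the same measure over the 7 arrays. Slc11a1, a metal transporter of phagosomes, was nearest to Itgax at 0.131, followed by Stra6l at 0.149 and Kcnq1ot1 at 0.182. Kcnq1ot1 did not exceed the 95th percentile of negative controls on any array, so no likeness to Itgax can be read from it. Stra6l exceeded that percentile on KO 2 and WT 3 only. Nearest to Itgae were Snx22 at 0.251, Mycl, a MYC family transcription factor, at 0.320 and Gpr33 at 0.346. Mycl was also nearest to Itgal, at 0.097, with Prr5 at 0.100 and Slc8b1 at 0.139. Nearest to Itgam were the C-type lectin genes Clec4b1 at 0.257 and Clec4a3 at 0.287, and the adaptor Dok2 at 0.304. Clec4b1 read 7.15, 6.72, 6.87 and 6.77 on KO 1 to 4, against 6.07, 9.93 and 7.09 on WT 1 to 3, with WT 2 alone high. Clec4b1, Clec4a3 and Dok2 exceeded the 95th percentile of negative controls on WT 2 only, as did Itgam. These likenesses rest on 7 arrays of which WT 1 and WT 2 carry most of the variation.

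The other integrin genes differed in both directions on the same arrays. Of 17 listed, 15 were measured. Of these, 9 had a higher and 6 a lower mean in KO, where 59.9% of all genes were higher, and 0 passed in limma. At an unadjusted limma p under 0.05 were 1 higher and 2 lower, against 8.98% and 10.6% of all genes. The median difference was 0.04. Itga9, whose product binds VCAM-1 and tenascin with beta 1, read 8.19, 7.64, 8.54 and 8.45 on KO 1 to 4, against 11.34, 11.91 and 9.11 on WT 1 to 3, and all WT arrays were above the KO arrays. Itga5, the alpha chain of the fibronectin receptor, read 9.10, 9.15, 9.14 and 8.85 on KO 1 to 4, against 10.45, 10.84 and 9.40 on WT 1 to 3, also with no overlap. For both genes WT 1 and WT 2 exceeded WT 3, as they did for the melanocyte markers, whose part in these values was not tested. Itga9 and Itga5 exceeded the 95th percentile of negative controls on WT 1 and WT 2 only, so their WT 3 and KO values were not clearly above background. Itgad (CD11d) read 7.72, 7.45, 7.97 and 7.89 on KO 1 to 4, against 6.06, 5.76 and 7.83 on WT 1 to 3. It exceeded the 95th percentile of negative controls on 0 arrays and on WT 1 and WT 2 was below their median, so no likeness to its neighbour Itgax can be read from it. Itga8 read 11.60, 11.35, 11 and 11.59 on KO 1 to 4, against 9.86, 7.85 and 11.65 on WT 1 to 3, and like Itgal it was lowest on WT 2. The differences were -2.58 for Itga9, -1.17 for Itga5, 1.21 for Itgad and 1.60 for Itga8. Against WT 3 alone they were -0.91, -0.34, -0.07 and -0.27.

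Genes that activate integrins or connect them to actin were measured for 33 of 36 listed. In KO 17 had a higher and 16 a lower mean, where 59.9% of all genes were higher, and 0 passed in limma. At an unadjusted limma p under 0.05 were 4 higher and 6 lower, against 8.98% and 10.6% of all genes. The median difference was 0.03. Tln1, the talin that switches the beta tail to its active state, differed by 0.39 (limma adjusted p = 0.235), by 0.02 against WT 3 alone and by 0.58 without WT 3 (limma adjusted p = 0.00456). Fermt3 (kindlin-3, the co-activator of leukocytes) read 11.49, 11.75, 11.68 and 11.63 on KO 1 to 4, against 11.37, 10.80 and 11.68 on WT 1 to 3, lowest on WT 2. Fermt3 differed by 0.35 (limma adjusted p = 0.334), by -0.05 against WT 3 alone and by 0.55 without WT 3 (limma adjusted p = 0.0387). Fermt2, the kindlin of adherent tissue cells, read 6.76, 7.24, 7.14 and 6.83 on KO 1 to 4, against 10.51, 11.01 and 7.23 on WT 1 to 3. Parva, an actin-binding parvin, read 6.80, 6.98, 6.59 and 6.82 on KO 1 to 4, against 10.38, 10.49 and 6.99 on WT 1 to 3. Both were thus high on WT 1 and WT 2 alone, the 2 arrays on which they exceeded the 95th percentile of negative controls. On WT 3 both lay near the KO arrays. Src, a kinase downstream of integrins, differed by -0.46 and Cib1, an integrin tail binding protein, by -0.40. Every KO value was below every WT value in both, but against WT 3 alone Src differed by -0.12 and Cib1 by -0.18. Src exceeded the 95th percentile of negative controls on 0 arrays and Cib1 on 3. Cd47, the integrin-associated protein, read 12.32, 12.45, 12.42 and 12.28 on KO 1 to 4, against 11.82, 11.97 and 12.47 on WT 1 to 3.

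**Figure D4:**
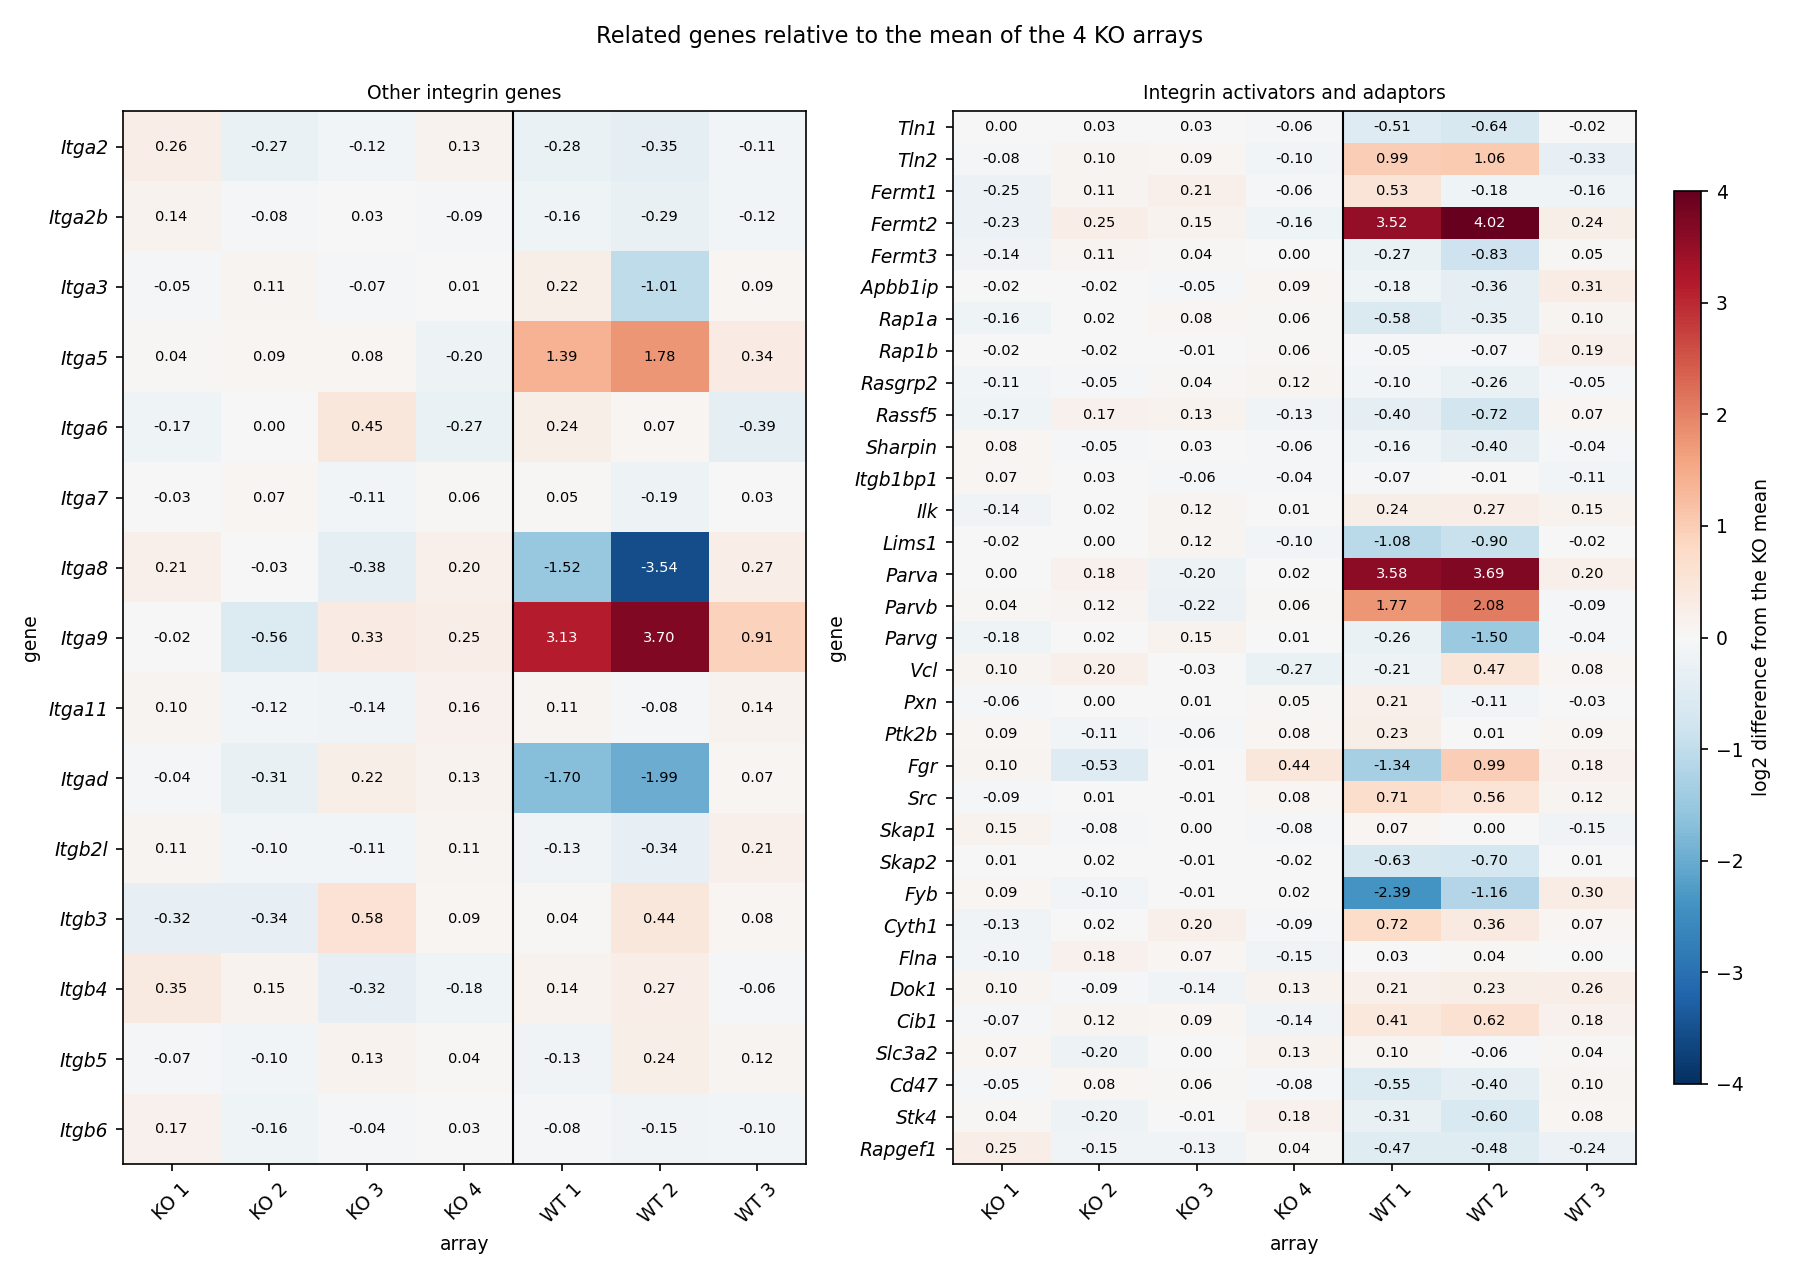
Log2 difference of each array from the mean of the 4 KO arrays for 15 other integrin genes (left) and 33 integrin activators and adaptors (right), with KO arrays left of the line. Fermt2, Parva and Itga9 are 3.13 to 4.02 above the KO mean on WT 1 and WT 2, while Itga8 is at -3.54 on WT 2 and Itgad at -1.99.

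Of 26 listed integrin ligands 23 were measured, 10 higher and 13 lower in KO, where 59.9% of all genes were higher. In limma 0 were past the threshold. At an unadjusted limma p under 0.05 were 1 higher and 2 lower, against 8.98% and 10.6% of all genes. The median difference was -0.01. Icam1, the ligand of LFA-1, read 11.84, 11.73, 11.82 and 11.87 on KO 1 to 4, against 11.74, 10.90 and 11.97 on WT 1 to 3, lowest on WT 2 as was Itgal. Cdh1 (E-cadherin), the ligand of the Itgae product, read 8.60, 8.26, 8.12 and 8.56 on KO 1 to 4, against 8.35, 11.32 and 8.55 on WT 1 to 3. On WT 2 Cdh1 was thus high where Itgae was low, and this was the 1 array on which Cdh1 exceeded the 95th percentile of negative controls. Vcam1, the ligand of the Itga4 and Itgb1 pair, read 8.44, 7.89, 8.13 and 8.84 on KO 1 to 4, against 7.33, 7.27 and 9.31 on WT 1 to 3, so its KO minus WT was 0.36 with all arrays and -0.98 without WT 1 and WT 2, but Vcam1 exceeded the 95th percentile of negative controls on 0 arrays. Madcam1, at 7.43 ± 0.12 (SD, n = 4) in KO and 7.17 ± 0.05 (SD, n = 3) in WT, did not exceed the 95th percentile of negative controls on any array. Mfge8, which links integrins containing the Itgav product to apoptotic cells, differed by -1.59 (limma adjusted p = 0.223), the matrix protein gene Ccn1 by -1.97 and Adam9, a membrane-bound disintegrin and metalloprotease, by -0.65. On WT 3 Mfge8 was 0.29 above the KO mean, against 2.19 and 2.30 on WT 1 and WT 2. Against WT 3 alone Ccn1 differed by -0.09 and Adam9 by 0.09. Mfge8 and Ccn1 exceeded the 95th percentile of negative controls on WT 1 and WT 2 only, so their other values were not clearly above background.

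A list of TGF-beta genes, from the cytokines and their latent complex to receptors, Smads and processing proteases, was measured in full, 20 of 20. In KO 11 were higher and 9 lower, where 59.9% of all genes were higher, and 0 were past the threshold in limma. At an unadjusted limma p under 0.05 were 2 higher and 3 lower, against 8.98% and 10.6% of all genes. The median difference was 0.05. Tgfb1, the cytokine itself, read 11.74, 11.92, 11.88 and 11.68 on KO 1 to 4, against 11.34, 11.30 and 11.70 on WT 1 to 3. WT 3 was between KO 4 and KO 1, so the groups overlapped, and the difference was 0.36 (limma adjusted p = 0.224). Smad2, a signal transducer of the TGF-beta receptor, differed by 0.52, and by 0.05 against WT 3 alone. Ltbp3, a latent TGF-beta binding protein with a signal above the 95th percentile of negative controls on 0 arrays, differed by -0.99. Mmp14, a membrane protease, differed by -2.09. Against WT 3 alone Ltbp3 differed by -0.26 and Mmp14 by -0.3. For Mmp14 the KO values were 7.67 to 8.36, against 10.72, 11.19 and 8.27 on WT 1 to 3. Mmp14 exceeded the 95th percentile of negative controls on WT 1 and WT 2 only, so its other values were not clearly above background. Without WT 3, limma called 36 of the 91 genes in these 4 lists (39.6%), 16 higher and 20 lower in KO, where 25.3% of all genes were called. Without WT 1 and WT 2 it called 0.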

How the data were processed

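RNA of sorted splenic cDC1 was measured on whole-transcript arrays, 4 KO and 3 WT, grouped and numbered by the sample titles. The authors deposited 1 table of log2 values for 28846 probe sets. The submitters' processing notes name RMA and version 1.1 of Affymetrix Expression Console. The sources used here do not say which arrays were normalized jointly. RMA compresses low signals, so differences of dim genes are understated. Precision is limited by how many arrays there are. Platform annotation gave 1 symbol to 19572 probe sets and none to 2634 transcript probe sets. Where several shared a symbol the one with the highest mean was kept, leaving 19505 genes, and all 10 integrin genes had 1 probe set each.

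The group comparison used lmFit and eBayes of limma (version 3.58.1, under R 4.3.3) without covariates, and p-values were adjusted by Benjamini-Hochberg across the 19505 genes and called under 0.05. Single genes were also tested by exact two-sided permutation over 35 splits. The scripts were tested on simulated data in which all arrays had the spread of the KO arrays, so a wider WT spread, as for Itgax, was not simulated. Background was read from 5222 negative control probe sets. Named were the 10 integrin genes, 4 genes by smallest p from each of 4 related lists, and 7 fixed ligands and activators. Also named were the 3 nearest profiles of those integrin genes spanning more than 2 log2 units, and leading markers of the cDC1 list. The 13 cell type lists were otherwise given as means or counts. The integrin genes and lists were chosen with earlier results of these data known. Alternatives left out each array, or WT 1 and WT 2 together, added a replicate block, or changed normalization, dim filter, variance model, array weights and probe sets. Listed genes without a named probe set were not analysed here.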

Additional observations from a re-analysis of the deposited data

How the results depend on the processing

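The array left out decided the calls. Over the fits that left out 1 array, limma called 0 to 4931 genes, 0 to 4 of the 10 integrin genes and 0 to 36 of the 91 related genes, the upper end each time without WT 3. Of the 10, 2 to 6 did not overlap, the 6 without WT 3, where 46% of all genes did not. With array weights, which gave WT 3 a weight of 0.241, limma called 4458 genes, 2 of the 10 (Itgax and Itga4) and 30 related genes. Without WT 1 and WT 2 together, 4 of the 10 did not overlap with the 1 WT array left, near the 42.3% of all genes. Opa1 kept its direction and its side of the threshold throughout.

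Leaving out 1 array gave differences between -1.33 and 0.49 for Itgam, -0.12 and 0.15 for Itgb1, -0.05 and 0.08 for Itgb7, and -0.04 and 0.50 for Icam1. Without WT 1 and WT 2, KO minus WT was -0.15 for Itgb1, -0.05 for Itgb2, -0.07 for Itgad, -0.27 for Itga8, 0.09 for Adam9, -0.15 for Icam1, -0.98 for Vcam1, -0.05 for Fermt3 and -0.10 for Cd47. With array weights it was 0.18 for Itgam and -0.06 for Itgb7. The cause was not tested.

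Same-numbered arrays had deviations from their group means correlated at -0.038, 0.046 and -0.017 over all genes, and differently numbered arrays at -0.12 to 0.15. This cannot decide whether the numbers pair the arrays, since the WT deviations also hold the marker differences between WT 1, WT 2 and WT 3. With the replicate block, limma called 0 genes and 0 of the 10, and Opa1 was at -1.48. Median centring put the median of all genes at 0.111, against 0.059 in the deposited values. The dim filter left out Itgb8 and Opa1. Opa1, Itgb8, Itgad, Vcam1, Madcam1, Src and Ltbp3 exceeded the 95th percentile of negative controls on 0 arrays. Itgam and Cdh1 did so on 1 array, Itga5, Itga9, Fermt2, Parva, Mfge8, Ccn1 and Mmp14 on 2, and Itgb7 and Cib1 on 3. On the other arrays these genes were not clearly above background, which limits what can be read from them.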
